A study of Drosophila melanogaster with 2 samples.

Results

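Polycomb repressive complex 2 (PRC2) was represented by 8 genes, E(z), Su(z)12, esc, escl, Caf1-55, Pcl, Jarid2 and jing, out of 18277 annotated genes. They were chosen by name for the subunits they encode, with earlier results of these data known. A gene was credited with every peak whose summit lay inside its annotated span or within 1 kb of it. The peaks came from chromatin immunoprecipitation with an anti-GFP antibody followed by sequencing (ChIP-seq), in whole Drosophila melanogaster embryos of both sexes aged 0 to 16 h. The embryos came from a stable transgenic line in which GFP is joined to the C terminus of Jing. The sources used here give neither the promoter that drives the fusion nor the number of copies of the jing locus. The embryos formed 1 group with 2 biological replicates, which carry the numbers 2 and 3. The lists were 30000 relaxed peaks for each replicate and 30000 for the pooled reads. A further list held 2593 thresholded peaks that passed the authors' test of reproducibility and were the strongest 2593 of the pooled list. The authors name the relaxed pooled list as peaks and background, the input to that test. The lowest deposited −log10 of the q-value in it was 0.0777, against 2.01 in the thresholded list. That value went down to 0.0712 in replicate 2 and 0.0867 in replicate 3. Peak signal is the authors' own value on a scale that is not given, so it is used to rank peaks within a list. With 1 group and no counts of reads, no test between samples was possible and library depth is unknown. In whole embryos a strong peak in few cells and a weak one in many cannot be told apart.

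PRC2 places methyl groups on lysine 27 of histone H3, a mark that keeps developmental genes silent. E(z) is the catalytic subunit, Su(z)12 a core zinc finger subunit, esc and its close paralog escl are WD40 proteins that bind the methylated histone, and Caf1-55 is a WD40 histone chaperone that PRC2 shares with other chromatin complexes. Pcl, a Tudor and PHD domain protein, and the pair of Jarid2 and Jing define alternative accessory forms of the complex. Jing is the fly counterpart of mammalian AEBP2, so the tagged protein here is itself a PRC2 accessory subunit as well as a regulator of tracheal and midline development.

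Thresholded Jing-GFP peaks were found at 3 of the 8 genes, the catalytic subunit gene E(z), the core subunit gene Su(z)12 and jing itself. By the same rule 15.0% of 13968 protein-coding genes and 13.2% of all annotated genes had a thresholded summit. The 3 genes carried 10 thresholded summits, of which 8 belonged to jing and 1 each to E(z) and Su(z)12. The other 5 genes, esc, escl, Caf1-55, Pcl and Jarid2, had none. Gene length differed widely: the span of jing was 119.8 kb and that of the other genes lay between 1.92 kb for escl and 9.49 kb for Jarid2. Of the 7 shorter PRC2 genes 2 had a thresholded summit, against 12.4% of protein-coding genes of 1 to 10 kb. For the length of jing, a thresholded summit was common, as 58.6% of the 87 protein-coding genes of 100 kb or more had one. The relaxed pooled list contains the thresholded peaks, so E(z), Su(z)12 and jing have a summit there by construction. It added no other member, which left 3 of 8, while 50.7% of protein-coding genes had one. In the relaxed list of replicate 2 it was 4 of 8, with Pcl added, against 54.8%, and in that of replicate 3 it was 3 of 8, against 54.0%. The count in replicate 2 was near the background. Of the 7 shorter PRC2 genes, 2 had a pooled summit, 3 a summit of replicate 2 and 2 a summit of replicate 3, against 46.0%, 51.7% and 49.6% of protein-coding genes of 1 to 10 kb in the same order of lists. Su(z)12, E(z) and jing were also the genes with a summit among the strongest 2593 peaks of replicate 2 and among those of replicate 3, where the background was 15.4% in both cases. The plot of ranks by gene shows 3 genes with a summit inside the threshold, Su(z)12 being the lowest of them, and 5 genes with almost none at any rank.

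**Figure D1:**
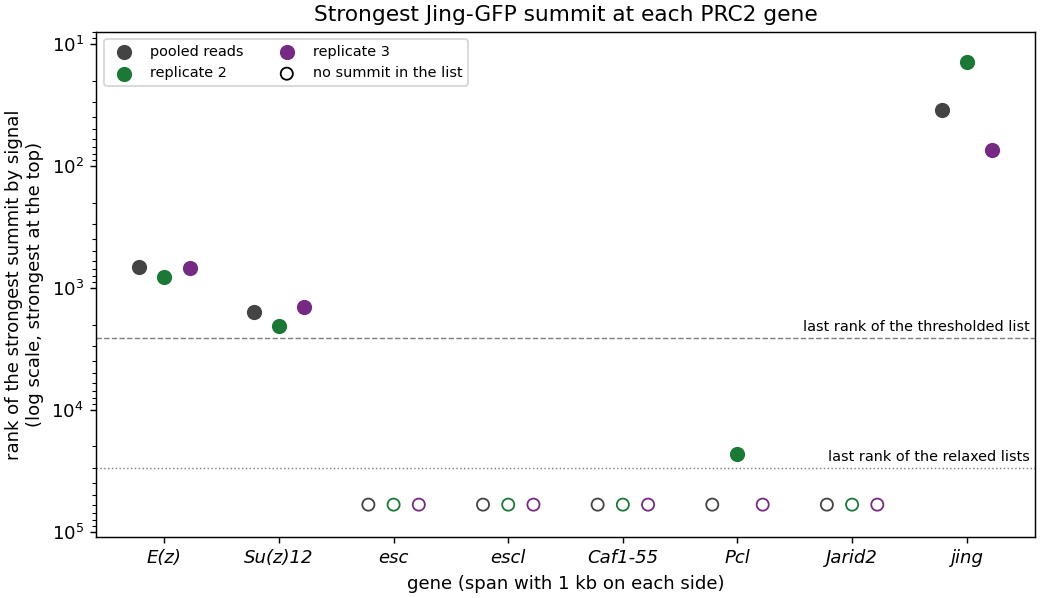
Rank of the strongest summit within 1 kb of each PRC2 gene in the pooled, replicate 2 and replicate 3 lists, on a log axis with the strongest at the top. E(z), Su(z)12 and jing lie above the dashed line at rank 2593 in all 3 lists, Pcl has 1 point at rank 22967 in replicate 2, and open circles below the dotted line at 30000 mark genes with no summit in a list.

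At E(z) (FBgn0000629, chr3L:10634575-10638130, minus strand, dm6), the gene of the histone methyltransferase, the thresholded summit lay at position 10638035, 95 bp downstream of the first start site. Its signal was 253 in the pooled list, which put it at rank 672. In replicate 2 the summit lay 7 bp away with a signal of 103 at rank 821, and in replicate 3 it lay 4 bp away with a signal of 143 at rank 693. Both replicates thus placed the summit within a few base pairs of the same point. The pooled and replicate 3 summits lay inside the first intron, which is 65 bp long and follows an untranslated exon, and the replicate 2 summit lay at 10638042, the last base of that exon. The start of Cnep1r2 on the opposite strand is 16 bp from that of E(z), so the peak, 10637853 to 10638216, covers both starts. A weaker summit lay in a later intron, 2154 bp downstream of the first start site, with a pooled signal of 48.3 at rank 9850. In replicate 3 that summit had a signal of 43.0 at rank 4309, and replicate 2 had no summit there. Replicate 3 had a further summit 754 bp upstream, inside Cnep1r2, with a signal of 25.5 at rank 16275. The intron under the summit is printed below on the E(z) strand from the RefSeq Release 6 assembly (chr3L:10637977-10638041), because it carries the strongest E(z) signal; capitals mark the 7 bases centred on the pooled summit. Its GC content was 10.8%, and none of the 6 motifs searched matched within it.
E(z) first intron: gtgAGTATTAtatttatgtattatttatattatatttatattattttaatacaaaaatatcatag

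At Su(z)12 (FBgn0020887, chr3L:19918242-19923462, minus strand), which encodes a core subunit needed for methyltransferase activity, the thresholded summit lay at 19923422, 40 bp downstream of the start site. The pooled signal was 150 at rank 1592, below the median of 170 over the thresholded peaks. Replicate 2 had its summit 6 bp away with a signal of 58.9 at rank 2043, and replicate 3 had it 16 bp away with a signal of 90.8 at rank 1429. As at E(z), the summit was found in both replicates. The thresholded list was itself selected by a test of reproducibility, so such agreement is common in it. Of all its summits, 94.1% had a summit of both relaxed replicate lists within 100 bp. The rank of the Su(z)12 summit was higher up the list in replicate 3. A second, weaker summit lay 186 bp upstream of the Su(z)12 start and 23 bp upstream of that of Pfdn6, the gene of a prefoldin subunit that is read in the opposite direction. That summit had a pooled signal of 55.6 at rank 7188, with ranks of 9447 in replicate 2 and 11824 in replicate 3. The stretch between the 2 start sites is printed on the Su(z)12 strand (chr3L:19923463-19923670), as it is the shared promoter of both genes, and capitals mark the 7 bases centred on the weaker summit. Its GC content was 33.2%, and its 1 copy of GCCAT, the core of the Pho binding sequence, lies on the other strand inside the capitals.
Su(z)12 to Pfdn6: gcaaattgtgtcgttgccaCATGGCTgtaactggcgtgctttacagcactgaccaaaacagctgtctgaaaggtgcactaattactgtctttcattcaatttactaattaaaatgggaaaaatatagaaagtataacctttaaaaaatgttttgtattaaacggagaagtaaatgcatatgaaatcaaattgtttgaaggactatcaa

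Caf1-55 (FBgn0263979, chr3R:15225576-15227564, plus strand), the histone chaperone gene, had no summit within 1 kb in any list, yet it lay next to a very strong peak. That summit was at 15229517, 1953 bp beyond the 3′ end of Caf1-55, with a pooled signal of 1412 at rank 12. In replicate 2 its signal was 620 at rank 9 and in replicate 3 it was 799 at rank 13. It lay 109 bp upstream of the start of Art3, an arginine methyltransferase gene, and 148 bp upstream of that of mRpS10, a mitochondrial ribosomal protein gene on the other strand. With spans extended by 5 kb in place of 1 kb, Caf1-55 became the fourth PRC2 gene with a thresholded summit through this peak alone. The share of all genes with a thresholded summit under 5 kb extensions was not computed, so that count has no background beside it. The sequence between the Art3 and mRpS10 starts is printed on the Art3 strand (chr3R:15229409-15229664), since it holds the strongest summit within 5 kb of a PRC2 gene, and capitals mark the 7 bases centred on it. Its GC content was 30.1%, and of the 6 motifs 1 matched, CTANNNNTA. This is a loose pattern for MEF2, in which N is any base, and it matched in 43.4% of protein-coding promoters.
Art3 to mRpS10: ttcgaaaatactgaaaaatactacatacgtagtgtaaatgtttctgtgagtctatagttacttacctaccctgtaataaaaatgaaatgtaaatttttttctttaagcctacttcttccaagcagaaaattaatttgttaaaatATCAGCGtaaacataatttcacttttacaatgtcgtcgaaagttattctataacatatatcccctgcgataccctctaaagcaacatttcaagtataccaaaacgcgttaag

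The remaining core subunit genes had no summit in any list. At esc (FBgn0000588, 2L 11827204 to 11829405) the nearest pooled summit was 2635 bp away, with a signal of 37.3 at rank 18544, and the nearest thresholded summit was 10626 bp away and nearest to the start of CycY. At escl (FBgn0032391, 2L 11990927 to 11992848), its paralog, the nearest pooled summit was 2818 bp away with a signal of 37.2 at rank 18662, and the nearest thresholded summit was 11334 bp away and nearest to the start of Hacd1. For both paralogs the nearest pooled summit was thus weak and lay between 2 and 3 kb away. The lowest signals that the relaxed lists hold were 30.2 in the pooled list, 13.7 in replicate 2 and 19.9 in replicate 3, so a peak below these would not be listed.

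The accessory subunit genes other than jing gave equally little. Jarid2 (FBgn0036004, 3L 9477038 to 9486530), which encodes the partner of Jing in its form of the complex, had no summit in any list, and the nearest pooled summit was 8621 bp away with a signal of 65.8 at rank 5224. Pcl (FBgn0003044, 2R 18135426 to 18139990) had no pooled summit. In replicate 2 it was credited with 1 summit, 563 bp beyond its 3′ end and 224 bp upstream of the start of pAbp, with a signal of 15.9 at rank 22967, and replicate 3 had none there. The nearest thresholded summit was 16852 bp from Pcl, at the start of lolal. Across the 7 PRC2 genes without jing, the pooled list held 4 summits, replicate 2 held 4 and replicate 3 held 5.

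At jing (FBgn0086655, 2R 6502006 to 6621792, plus strand), the gene of the tagged protein, 8 summits were thresholded, 1 at the promoter and 7 in introns. Over all thresholded summits 40.8% were at promoters and 39.3% in introns, while introns make up 85.7% of the extended span of jing. The promoter summit, 40 bp upstream of the first start site, had a pooled signal of 924 at rank 35. Replicate 2 had it with a signal of 516 at rank 14, and replicate 3 had it with a signal of 418 at rank 74. The strongest intronic summit lay 93401 bp downstream of the start, with a pooled signal of 235 at rank 768. It was found 2 bp away in replicate 2, at rank 1104, and 7 bp away in replicate 3, at rank 798. These 2 summits were among the strongest 2593 peaks of both replicates, and so were those of E(z) and Su(z)12.

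The other 6 thresholded jing summits were weaker. A pair lay 104075 and 105673 bp from the start, upstream of the alternative starts at 108481 and 111762 bp, with pooled signals of 142 and 134. The summit at 104075 bp ranked 1071 in replicate 2 and 3376 in replicate 3, and that at 105673 bp ranked 1487 in replicate 2 and 2499 in replicate 3, where the nearest summit was 160 bp away. Both were thus stronger in rank in replicate 2. The summit 22271 bp from the start had a pooled signal of 118 and ranked 2016 in replicate 2, with the nearest summit 105 bp away, and 2504 in replicate 3. The summit 10493 bp from the start had a signal of 117 and ranked 2262 in replicate 2 and 3085 in replicate 3. These had the same order of replicates as the pair before. The remaining pair, 35898 and 44707 bp from the start, just passed the threshold with signals of 106.7 and 106.3 against a lowest thresholded signal of 106.2. They ranked 4915 and 4031 in replicate 2 and 2079 and 2113 in replicate 3, the opposite order. The strongest jing summit that missed the threshold lay 101112 bp from the start, with a pooled signal of 94.2 at rank 3017.

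**Figure D2:**
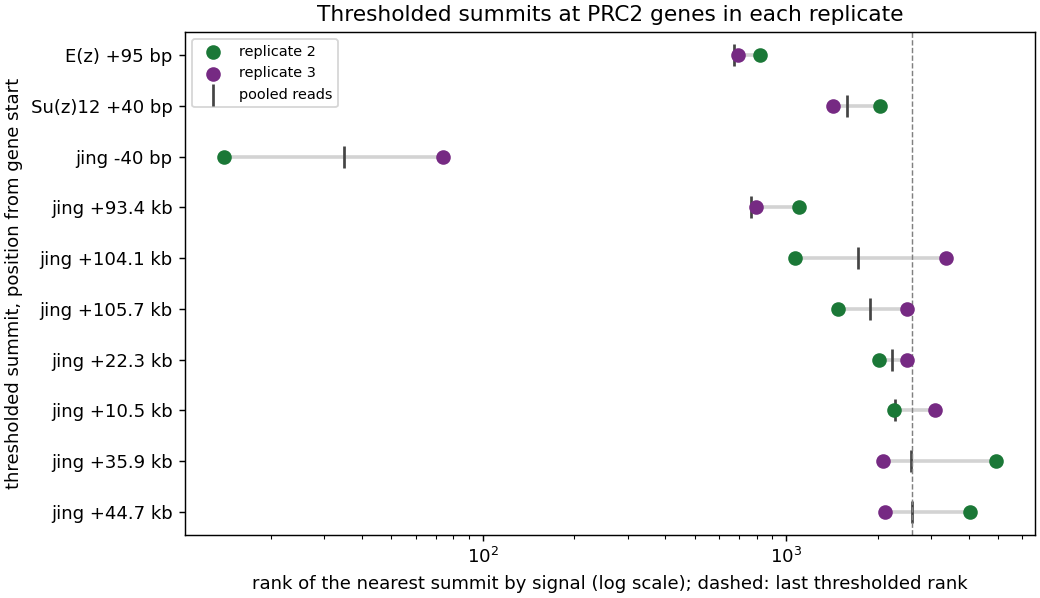
Rank by signal, on a log axis, of the nearest summit in replicate 2 (green) and replicate 3 (purple) for each of the 10 thresholded summits at PRC2 genes, with the pooled rank as a bar; labels give the position from the gene's first start. The jing promoter summit has ranks 14 and 74, and 6 of the 10 summits lie left of the dashed line at rank 2593 in both replicates, 4 of them with both replicate summits within 100 bp of the pooled one.

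Of the 10 thresholded summits at PRC2 genes, 8 had a summit of both relaxed replicate lists within 100 bp, against 94.1% of all 2593. When each replicate was limited to its 2593 strongest peaks, 4 of the 10 did, against 69.3% of all. At jing 5 of 8 summits ranked higher in replicate 2 and 3 ranked higher in replicate 3, while those of E(z) and Su(z)12 ranked higher in replicate 3. In the order of pooled signal, the promoters of jing, E(z) and Su(z)12 followed each other at 924, 253 and 150, and that order was the same in each replicate.

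Beyond the thresholded summits, the relaxed lists, which include background, held summits along jing almost from end to end. The pooled list held 87 within 1 kb of the gene, 0.714 per kb, against 0.218 per kb over the genome. Replicate 2 held 117, 0.961 per kb, and replicate 3 held 65, 0.534 per kb, so that both replicates lay above the genome value but differed by the number of summits. The median gap between neighbouring pooled summits was 976 bp and the widest was 5280 bp. Of these 87 summits 78 were in introns, which make up 85.7% of the extended span, 7 were at promoters and 2 in coding exons. Their median signal was 51.6 and their median rank 8409, far below the promoter summit. At that median rank the −log10 of the q-value was 0.314, and it was 1.60 at the strongest summit that missed the threshold. Most of these summits are thus not separated from background by that value. Of the replicate 3 summits at jing, 58.5% had a summit of replicate 2 within 100 bp, against 33.2% over the whole list. That whole-list share takes no account of density, as replicate 2 had 0.961 summits per kb at jing and 0.218 over the genome. The part of this density in the 58.5% was not tested. Of the more numerous replicate 2 summits, 32.5% had one of replicate 3, against 33.2% over the whole list.

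**Figure D3:**
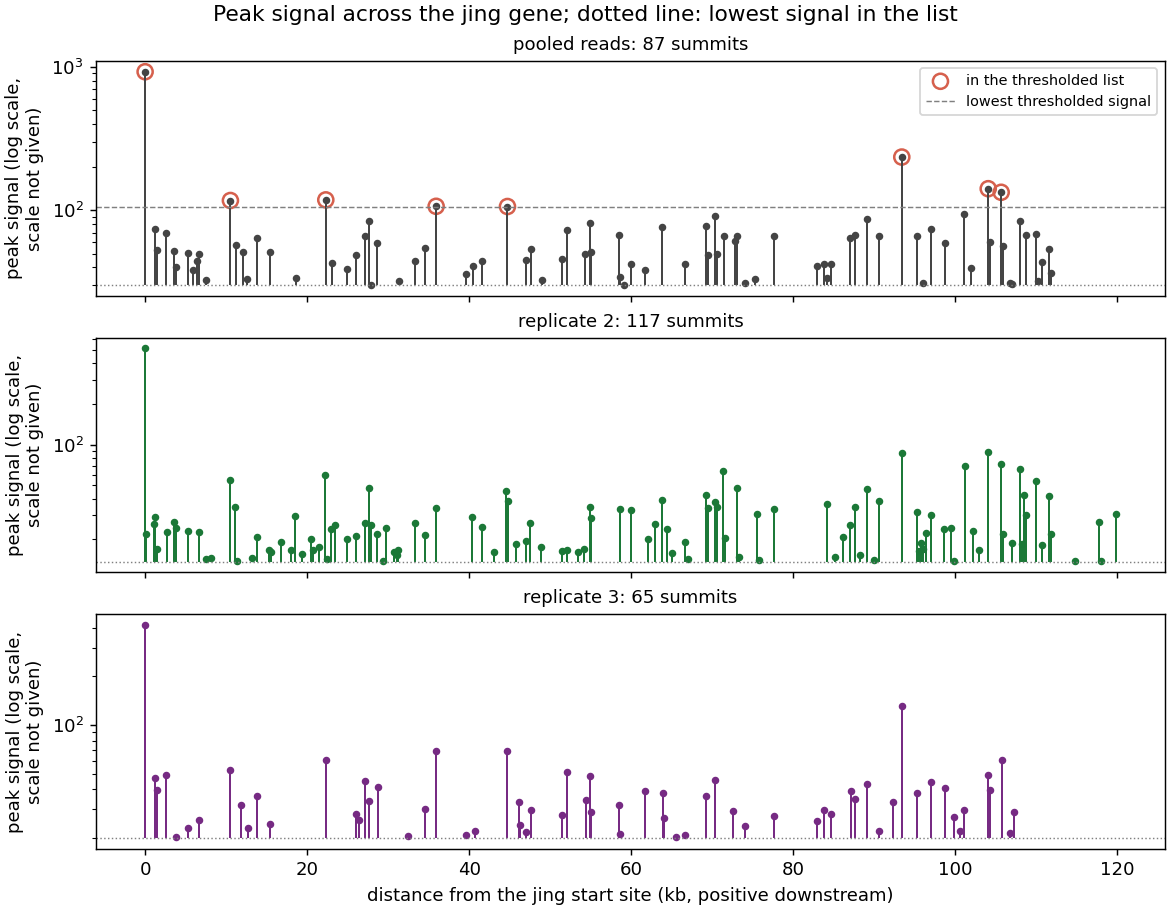
Signal of each relaxed summit (log axes, scale not given) against its distance from the first jing start in kb, for the pooled reads, replicate 2 and replicate 3, with red circles on the 8 thresholded summits. The promoter summit stands above a row of low summits spread along the gene, 87 in the pooled list, 117 in replicate 2 and 65 in replicate 3.

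In the pooled list the stretch of frequent summits ended within 10 kb of either end of the gene. In bins of 10 kb counted from the first start, each of the 12 bins of the gene held between 5 and 10 pooled summits, while 15.1% of 10 kb bins over the genome held 5 or more. In replicate 2 the 12 bins held between 6 and 15 (background 16.5%), and in replicate 3 they held between 0 and 7, with 5 or more in 9 bins (background 13.7%). In the 9 bins from 100 to 10 kb before the start, pooled summits numbered 0, as did those of replicate 2, and replicate 3 had 2. In the 4 bins from 120 to 160 kb the pooled list had 0, replicate 2 had 8 and replicate 3 had 0. The uninterrupted run of pooled summits, with no gap over 10 kb, reached from 8848 bp upstream of the start to 111779 bp downstream of it, a length of 120.6 kb. It was preceded by a gap of 151 kb and followed by a gap of 49.3 kb. In replicate 2 the run began 8291 bp upstream of the start, after a gap of 152 kb, and ended 8895 bp past the 3′ end of the gene, before a gap of 14.8 kb. In replicate 3 it began 18516 bp upstream, after a gap of 23.2 kb, and ended 12491 bp before the 3′ end of the gene, ahead of a gap of 53.8 kb. The gaps on either side thus differed by over 3 times between the replicates. The line carries a jing transgene, whose extent the sources used here do not give, and the part of extra copies of the locus in this run was not tested.

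**Figure D4:**
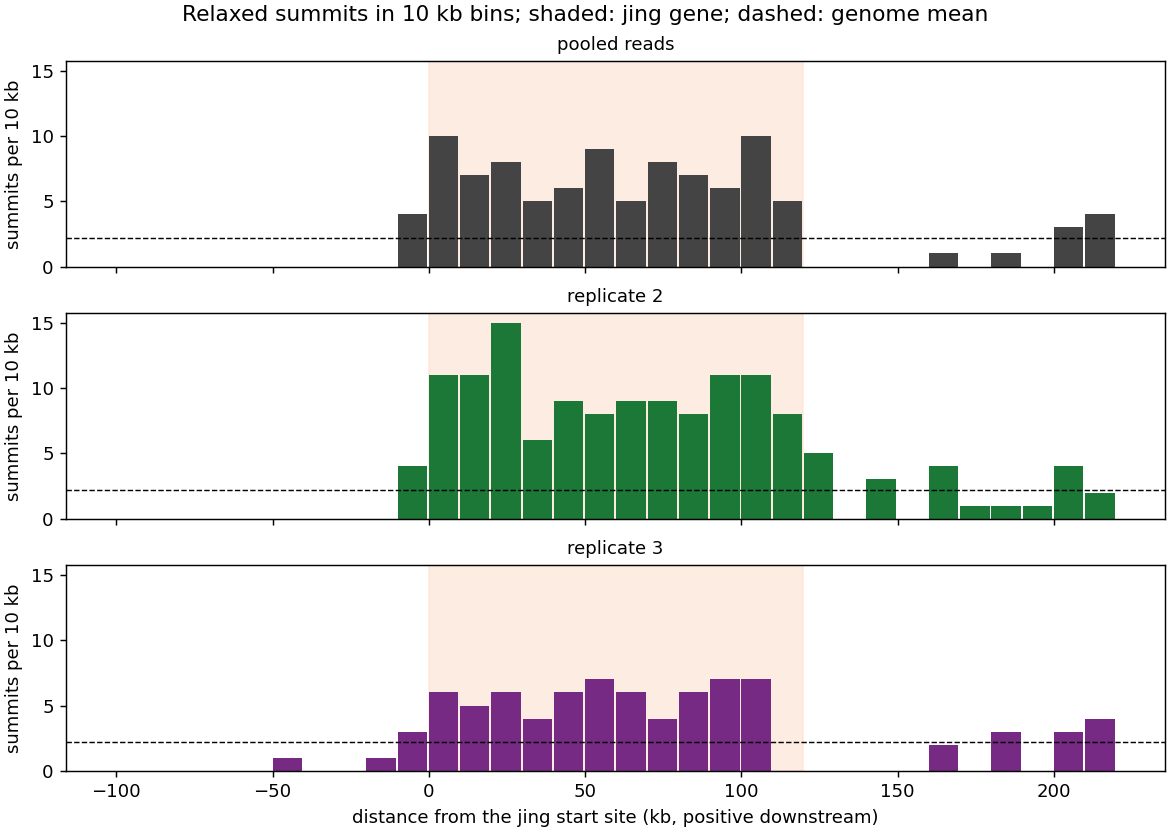
Relaxed summits in bins of 10 kb against distance from the first jing start, for the pooled reads, replicate 2 and replicate 3; the shaded band is the jing gene and the dashed line the genome mean. All 12 bins of the gene hold 5 to 10 pooled summits, and the bins from 100 to 10 kb before the start hold 0.

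Other annotated genes lie inside or beside jing. Its promoter is shared with lncRNA:CR46075, whose start lies 234 bp away on the opposite strand and which had no summit in its own span. The nested genes CG15233, lncRNA:CR43905 and lncRNA:CR45127 held 1 pooled summit each, and sisRNA:CR46361 held none. In replicate 2 lncRNA:CR43905 held 3 summits, lncRNA:CR45127 held 2 and CG15233 held 1. When each thresholded summit was given to the closest start, 5 of the 8 at jing went to CG15233, lncRNA:CR43905 or lncRNA:CR45127 and 3 stayed with jing. Set beside the 87 protein-coding genes of 100 kb or more, a class chosen after the values were seen, jing was second by pooled summits per kb, after the ecdysone-induced receptor gene Eip75B with 0.734 per kb and before the homeodomain cofactor gene hth with 0.649 per kb. The median of that class was 0.164 per kb. By thresholded summits per kb jing took the third place, at 0.0657 against a class median of 0.00720. It was first in replicate 2 and second in replicate 3 by relaxed summits per kb. The number of copies of the jing locus in this line is unknown, and its part in these places was not tested.

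The 3 PRC2 promoters with a summit were of the divergent kind. E(z), Su(z)12 and jing each had a start on the opposite strand within 250 bp upstream, as had Jarid2 (Uch-L5, 73 bp) and Caf1-55 (CG31344, 247 bp), which had no summit there. Over protein-coding genes 14.7% had such a neighbour. In 200 bp windows centred on the summit GC content was 24.5% at E(z), 35.5% at Su(z)12 and 62.5% at the jing promoter, against a median of 34.5% over all thresholded summits (quartiles 31.0% and 39.0%). E(z) thus lay below the lower quartile and jing far above the upper one.

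The 6 motifs searched on both strands, where copies may overlap, were no common feature of these summits. GAGAG, bound by GAGA factor, matched in 3 of the 10 windows and in 24.4% of all thresholded windows, and the 3 were jing introns, with 7 copies at 104075 bp from the start. GCCAT, the Pho core, matched in 3 windows, those of E(z), the jing promoter and the jing intron at 44707 bp, and in 26.8% of all. GTGTGT, bound by Combgap, matched in 1 window (11.7% of all), and CTANNNNTA, a loose MEF2 pattern, in 1 (33.4% of all). The DRE, TATCGATA, matched in none of the 10 and in 1.08% of all. The sequence of GATA factors, GATAAG, matched in none of the 10 and in 260 of all 2593. Promoters were taken from 250 bp before to 50 bp after the first start. In them GCCAT matched in 7 of the 8 genes, E(z) being the exception, and in 41.2% of 13968 promoters of protein-coding genes. Of the 6 motifs it lay furthest above its background. GAGAG matched in 3 of the 8 (29.7% of all promoters), CTANNNNTA in 3 (43.4%) and GTGTGT in 2 (15.7%). TATCGATA and GATAAG matched in none (9.36% and 18.9%). GCCAT was thus found in promoters with and without a Jing-GFP summit.

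Thresholded summits at 3 of the 8 PRC2 genes stand beside 9 of 20 other Polycomb genes and the background of 15.0%. That background takes no account of gene length, and among the 9 genes psq spans 59.4 kb and grh 41.7 kb. Of the 8 genes of PRC1, the complex that compacts chromatin and ubiquitylates histone H2A, 4 had one: ph-p, Su(z)2, Psc and ph-d, with strongest pooled signals of 1947, 681, 397 and 368. Pc, Sce, Scm and l(3)73Ah had none. The PhoRC genes pho, phol and Sfmbt and the deubiquitinase genes caly (calypso) and Asx had none. Of 7 factors known at Polycomb response elements 5 had one: Trl with 944, Dsp1 with 423, grh with 328, lolal with 168 and psq with 138, but not Spps or cg. The Dsp1 summit was nearest to the start of CG9921. The lolal gene had no summit in the relaxed list of replicate 3, and its strongest in replicate 2 ranked 2114. All other genes among the 9 had a summit in the relaxed lists of both replicates. In summits per kb of the pooled list, jing had 0.714, E(z) 0.360 and Su(z)12 0.277, though the short spans of E(z) and Su(z)12 hold 2 summits each. Of the other Polycomb genes, Su(z)2 with 1.19, ph-p with 0.847 and Psc with 0.824 lay above jing, and the other 17 lay below it, among them grh with 0.389, ph-d with 0.314, psq with 0.293, Trl with 0.198 and Pc with 0.0720. The difference between these lists of genes was not tested, nor was the part of extra copies of jing in its place.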

How the data were processed

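Jing-GFP ChIP-seq peak lists from 2 replicates of 1 group were analysed. Per the labels, chromatin was sonicated to 200 to 800 bp. Per the file headers of the deposited readme texts, the authors called peaks on dm6 against a control alignment, for each replicate and for pooled reads, and derived the thresholded list by the irreproducible discovery rate. The sources used here name neither the aligner nor the peak caller. The deposited signal value of a peak has no stated scale, and the deposited −log10 of the q-value was 2.01 or more in the thresholded list. The control and the coverage tracks were not analysed here.

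Summits were taken as peak start plus offset. Genes came from Ensembl release 115 without transposable elements, and sequence from the RefSeq Release 6 assembly. A promoter summit lay within 500 bp of an annotated start site. The named genes were all 8 members, genes sharing their summits or nearest to them, and a list of 20 other Polycomb genes. Members and lists were chosen with earlier results of these data known. Span classes, the 10 kb bins and the run of summits were chosen after the values were seen, as were Eip75B, hth and the Art3 peak. All counts are descriptions, with no test. Counting steps were tested on simulated data. Python 3.11.15, numpy 2.4.6, pandas 2.3.3 and matplotlib 3.10.9 were used.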

Additional observations from a re-analysis of the deposited data

How the results depend on the processing

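Of 28 alternatives 25 stayed within 1.5 times of the reported count. E(z), Su(z)12 and jing had a summit under each alternative to the thresholded count except the list of the 1296 strongest peaks, which left out Su(z)12. Caf1-55 joined them with 5 kb extensions, for which the share of all genes was not computed. The 10 thresholded summits became 3 among these 1296, and 5 when a summit counted only for whichever gene starts closest to it, as 5 jing summits lay closer to the starts of CG15233, lncRNA:CR43905 or lncRNA:CR45127. The 8 summits found in both replicates became 4 among the strongest peaks of each replicate. With 1 replicate left out, 3 genes had a summit in either case, thresholded summits numbered 8 (without replicate 2) and 12 (without replicate 3), and relaxed summits 70 and 121, nearly all of them in jing. No paired analysis was possible because there is 1 group. The relaxed lists stop at 30000 peaks and no depth is known, so a gene without a summit may hold a peak below their lowest signal.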
